A study of Mus musculus with 6 samples.

Results

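The transcripts of 10 genes were followed in mouse leukaemia cells with different forms of Ikaros: the B lineage factors Ebf1, Pax5, Foxo1, Lef1 and Runx1, the E proteins Tcf3, Tcf4 and Tcf12, and the Id proteins Id2 and Id3. They were taken by symbol from a table of 22098 gene symbols, and all 10 were among the 11379 genes expressed highly enough to be tested. The cells were C57BL/6 bone marrow transduced at day 0 of culture with a retrovirus for the p185 form of the BCR-ABL kinase and YFP, which the labels call transformed proB-ALL. The marrow came from Ikaros ZnF4-/- mutants, Ikaros ZnF1-/- mutants or wild type mice, and wild type cells carried BCR-ABL too. ZnF1 and ZnF4 are the first and the fourth zinc finger of the DNA-binding domain of Ikaros, a transcription factor of lymphocyte development, and the series asks what single fingers contribute. Poly(A) RNA was taken on culture days 21 and 28 and made into 1 library each time, so each genotype had 2 libraries and the study 6. The labels do not say whether the days of a genotype were separate cultures, so p-values measure repeatability between days, and a feature of 1 culture cannot be told apart from the genotype. A change of genotype effects with day could not be tested.

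B cell identity is built in layers. E proteins, basic helix-loop-helix factors that bind E-box sequences as dimers, act with Foxo1 to switch on Ebf1, and Ebf1 and the E proteins switch on Pax5, which holds cells in the B lineage by activating B cell genes and silencing genes of other lineages. Id proteins have the helix-loop-helix but no DNA-binding region: they pair with E proteins and keep them off DNA, and in mice a high Id2 level favours innate lymphoid and some myeloid and dendritic fates over B cells.

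Values are RPKM as deposited, that is reads per length of transcript and per size of library, so levels of different genes may be compared per length. Differences, given with a standard error, are of log2(RPKM + 1) in a limma model of the 6 libraries and understate the change of low genes. A gene is said to be called when its adjusted p was below 0.05 over all tested genes. In bulk RNA, fewer cells of a type and less RNA per cell cannot be told apart.

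Between 10401 and 11233 symbols reached 1 RPKM in a library. The mutated gene, Ikzf1, had 186.0 and 165.9 RPKM in ZnF4 cells, 108.0 and 91.4 RPKM in ZnF1 cells and 89.2 and 78.7 RPKM in wild type cells at day 21 and day 28. These values cover whole transcripts and cannot show the loss of 1 finger. The 10 B-lineage markers, among them Cd79a and Vpreb1, summed to 2816.6 and 2497.5 RPKM in ZnF4 cells, 2594.5 and 2594.9 RPKM in ZnF1 cells and 2703.1 and 2494.4 RPKM in wild type cells, so the labelled cell type had its markers in every library. Macrophage markers (16 genes) summed to 228.5 and 296.5 RPKM in ZnF4 cells, 2222.9 and 2146.9 RPKM in ZnF1 cells and 566.8 and 360.5 RPKM in wild type cells. Stromal and endothelial markers (15 genes, called stromal from here on) summed to 44.3 and 40.3 RPKM in ZnF4 cells, 289.7 and 272.1 RPKM in ZnF1 cells and 81.7 and 66.8 RPKM in wild type cells. Both of these sums were thus highest in both ZnF1 libraries. Of the endothelial genes, Cdh5 was highest in ZnF4 cells (0.8 and 1.3 RPKM, and 0.4 and 0.5 RPKM in ZnF1 cells). Pecam1 was near level between ZnF1 cells (26.7 and 26.4 RPKM) and wild type cells (25.0 and 26.1 RPKM).

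Promoters are shown for 3 of the genes: Id2, which differed most between genotypes, Tcf3, the most abundant E protein, and Ebf1. Of the 16 windows described here, the Ebf1 window shown was the only one with the longer Ikaros core TGGGAA. RefSeq promoters of build GRCm38.p6, matched by symbol, gave 16 windows of 250 bases upstream of a start for 9 of the 10 genes. Tcf4 has none, because windows on its chromosome were left out, so the counts do not cover it. The promoters used for comparison were not cut in this way. The build differs from that of the expression values. Capitals mark the E-box CAGNTG, which E proteins bind, and the Ikaros core GGGAA, read on both strands, with GGGAA also lying inside TGGGAA.
Id2, chr12:25096093-25096342, minus strand: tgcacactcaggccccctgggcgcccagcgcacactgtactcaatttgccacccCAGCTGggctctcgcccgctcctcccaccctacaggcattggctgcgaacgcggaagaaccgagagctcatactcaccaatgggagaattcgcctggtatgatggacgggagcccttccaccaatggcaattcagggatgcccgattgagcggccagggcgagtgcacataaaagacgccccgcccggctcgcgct
Tcf3, chr10:80433636-80433885, minus strand: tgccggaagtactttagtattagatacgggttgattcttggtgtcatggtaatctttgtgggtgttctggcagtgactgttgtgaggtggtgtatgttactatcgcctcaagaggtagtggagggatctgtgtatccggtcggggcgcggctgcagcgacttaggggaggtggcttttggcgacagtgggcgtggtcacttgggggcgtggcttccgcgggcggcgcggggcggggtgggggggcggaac
Ebf1, chr11:44619978-44620227, plus strand: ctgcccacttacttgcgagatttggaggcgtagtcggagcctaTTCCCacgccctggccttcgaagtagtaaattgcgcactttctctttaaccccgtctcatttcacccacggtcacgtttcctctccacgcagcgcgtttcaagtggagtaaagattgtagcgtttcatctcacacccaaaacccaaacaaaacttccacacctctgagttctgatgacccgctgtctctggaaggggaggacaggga
The Id2 window held 1 E-box and no GGGAA, the Tcf3 window neither motif, and the Ebf1 window 1 GGGAA, written as TTCCC on the printed strand. Among the 16 windows CAGNTG stood in 4 and GGGAA in 6, against 44.8% and 56.2% of 32851 promoters of the same length. The GGGAA windows belonged to Ebf1, Pax5, Foxo1 and Runx1, and no window of Tcf3, Tcf12, Id2, Id3 or Lef1 held it. TGGGAA stood in 21.6% of the promoters. The forkhead motif TGTTTAC stood in none of the 16 windows (3.17% of promoters) and the Runx motif TGTGGT in 1, an upstream Ebf1 window (14.1% of promoters). A match describes letters only, and says nothing of binding.

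All 10 genes were detected in every library, and 9 of them lay among the more abundant transcripts. The order of mean levels over the 6 libraries was Ebf1 (194.6 RPKM), Pax5 (159.6), Lef1 (145.2), Tcf3 (95.2), Foxo1 (62.9), Tcf12 (55.4), Id3 (44.0), Runx1 (38.0), Tcf4 (32.8) and Id2 (9.42 RPKM). Ebf1 exceeded 98.8% of tested genes in mean level, Tcf4 80.0% and Id2 44.4%. Neighbours in this order overlapped in their ranges over the libraries, except Lef1 and Tcf3, Tcf3 and Foxo1, and Tcf4 and Id2. The highest library exceeded the lowest 8.14-fold for Id2 and 1.77-fold for Tcf4, and between 1.21-fold for Foxo1 and 1.65-fold for Lef1 for the other 8 genes.

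**Figure D1:**
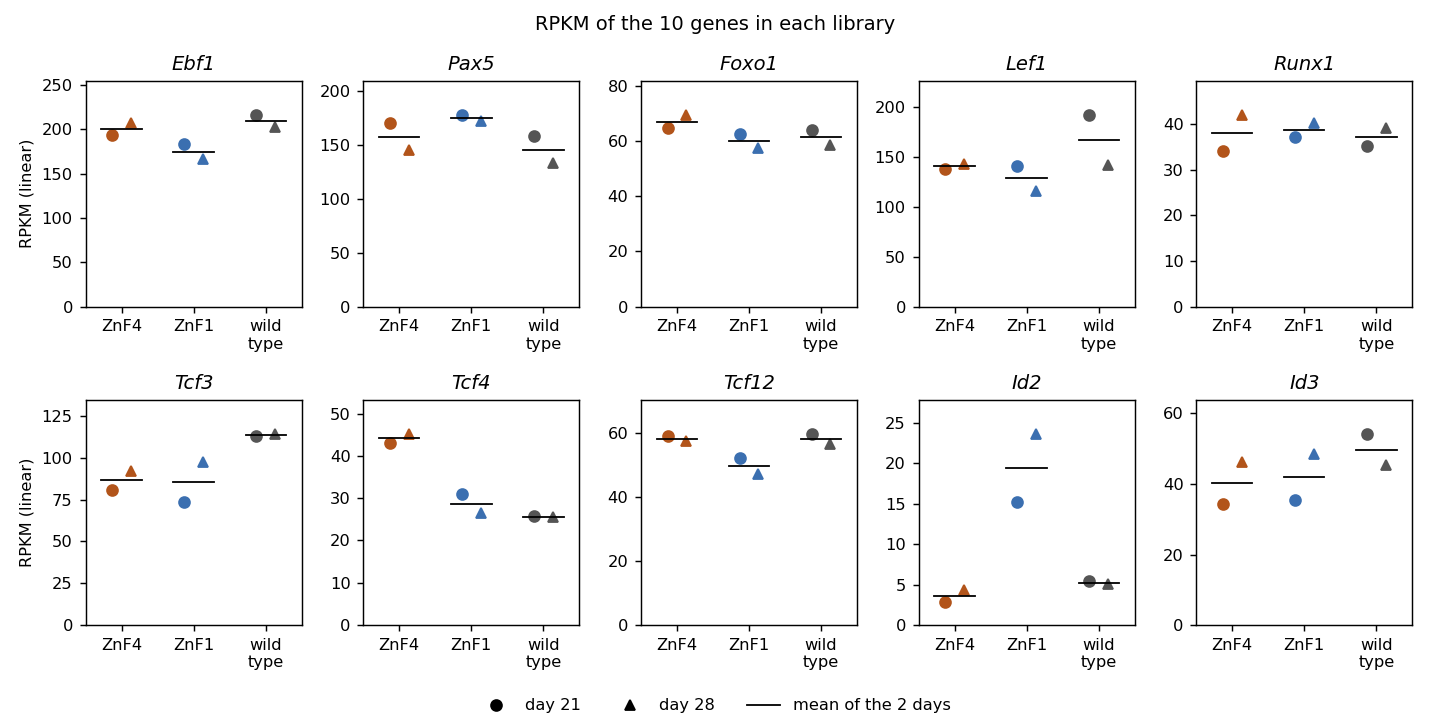
RPKM (linear axis from 0) of each of the 10 genes in the ZnF4, ZnF1 and wild type libraries; circles are day 21, triangles day 28 and lines the mean of both days. Id2 stands apart at 15.2 and 23.6 RPKM in ZnF1 cells, Tcf4 at 43.1 and 45.2 RPKM in ZnF4 cells and Tcf3 at 113 and 114.2 RPKM in wild type cells.

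Few of the 10 genes were called in each comparison, and with 2 libraries per genotype a gene that was not called may still differ. In ZnF4 cells against wild type, 1 of 10 genes was called, Tcf4, which was higher. Over all tested genes the share called was 18.2%, with 10.9% higher and 7.32% lower. In ZnF1 cells against wild type, 3 of 10 were called, Id2 higher and Tcf3 and Tcf12 lower, where 38.1% of all tested genes were called, 22.9% higher and 15.2% lower. In ZnF4 against ZnF1 cells, 3 of 10 were called, Tcf4 and Tcf12 higher and Id2 lower, where 45.5% of all tested genes were called, 22.3% higher and 23.2% lower. None of the 3 counts of called genes lay above the share of all genes. The median difference of the 10 genes was -0.03, -0.13 and 0.08 in these comparisons, against 0.02, -0.02 and 0.03 for all tested genes. The first comparison's count became 2 with median-ratio scaling and 0 with the longest transcript or without either wild type library or the day 28 ZnF4 library. The second became 1 without day as a block, without the day 21 wild type library or without either ZnF1 library. With quantile scaling the second was 2 higher and none lower, and the third 1 higher and 2 lower. The third lay at 1 higher and 1 lower with median-ratio scaling, with a mean of at least 4 RPKM, without the block or with any 1 library left out.

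**Figure D2:**
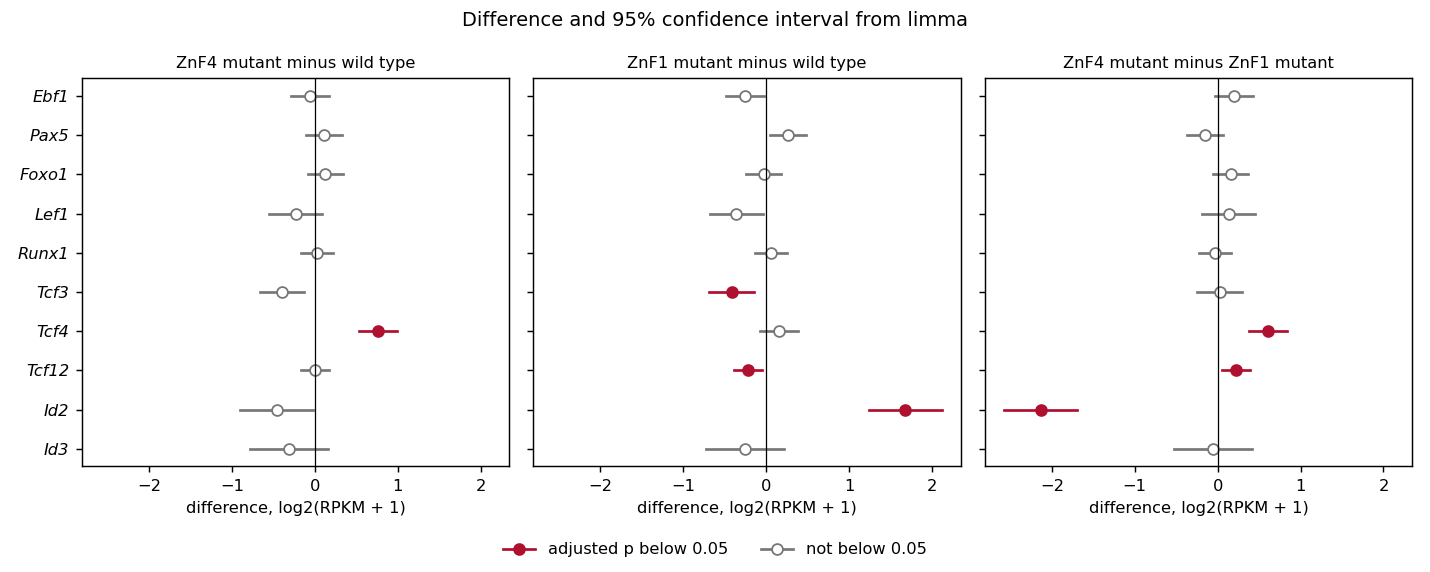
Differences between genotypes on the log2(RPKM + 1) scale (x axis) for the 10 genes (rows), with 95% confidence intervals from limma; filled red points have an adjusted p below 0.05. The Id2 points lie at 1.68 for ZnF1 minus wild type and -2.13 for ZnF4 minus ZnF1. The 5 genes at the top have open points in all 3 panels.

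Id2, less abundant than Id3, showed the largest difference of the set. It had 2.9 and 4.3 RPKM in ZnF4 cells, 15.2 and 23.6 RPKM in ZnF1 cells and 5.4 and 5.1 RPKM in wild type cells at day 21 and day 28. Both ZnF1 libraries lay above all others, and both ZnF4 libraries lay below both wild type libraries. The RPKM ratio of ZnF1 to wild type was 2.82 at day 21 and 4.63 at day 28, and the log2 difference was 1.68 ± 0.17 (limma, adjusted p = 0.00211, higher on 2 of 2 days). Between the mutants the log2 difference, ZnF4 minus ZnF1, was -2.13 ± 0.17 (limma, adjusted p = 0.000818), and the RPKM ratio was 0.191 at day 21 and 0.182 at day 28. Both calls were kept under all 13 alternatives, with adjusted p up to 0.0317 and 0.0257. The lower level in ZnF4 than in wild type cells was not called (log2 difference -0.46 ± 0.17, limma adjusted p = 0.141).

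The high Id2 of ZnF1 cells came with high markers of other cell types. The summed macrophage markers were 0.566 times the wild type level in ZnF4 cells and 4.71 times in ZnF1 cells, the stromal markers 0.570 times and 3.78 times, and the B-lineage markers 1.02 times and 0.998 times, all from means over the days. The mean Id2 level was 0.686 times the wild type level in ZnF4 cells and 3.70 times in ZnF1 cells. Of 14 tested macrophage markers 14 were called higher in ZnF1 than wild type cells and 8 lower in ZnF4 than wild type cells, and of 13 stromal markers 12 and 6. Over all tested genes 22.9% were called higher in ZnF1 and 7.32% lower in ZnF4 than wild type cells. The 8 became 0 without the day 21 wild type library or the day 21 ZnF4 library, 1 without the day 28 ZnF4 library, 2 without either ZnF1 library and 4 without the day 28 wild type library. The 6 became 1 without either wild type library or the day 28 ZnF4 library and 2 without that of day 21, while with 1 library left out the 14 stayed at 12 or more and the 12 at 10 or more. C1qb, a complement gene of macrophages, had 19.3 and 20.8 RPKM in ZnF4 cells, 249.8 and 246.9 RPKM in ZnF1 cells and 54.4 and 38.3 RPKM in wild type cells. Among macrophage markers Lyz1 and Cd163 stayed below 1 RPKM in all libraries, and the stromal Lum was listed at 0. The stromal Pdgfra, Pdgfrb, Vcam1 and Kdr reached 1 RPKM only in the ZnF1 libraries, so they were tested only because they were high there. The 10 natural killer and innate lymphoid markers, cells that need Id2, summed to at most 0.9 RPKM in any library, and Ncr1, Klrk1, Eomes and Tbx21 were listed at 0. The part of macrophages or stroma in the Id2 difference was not tested.

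**Figure D3:**
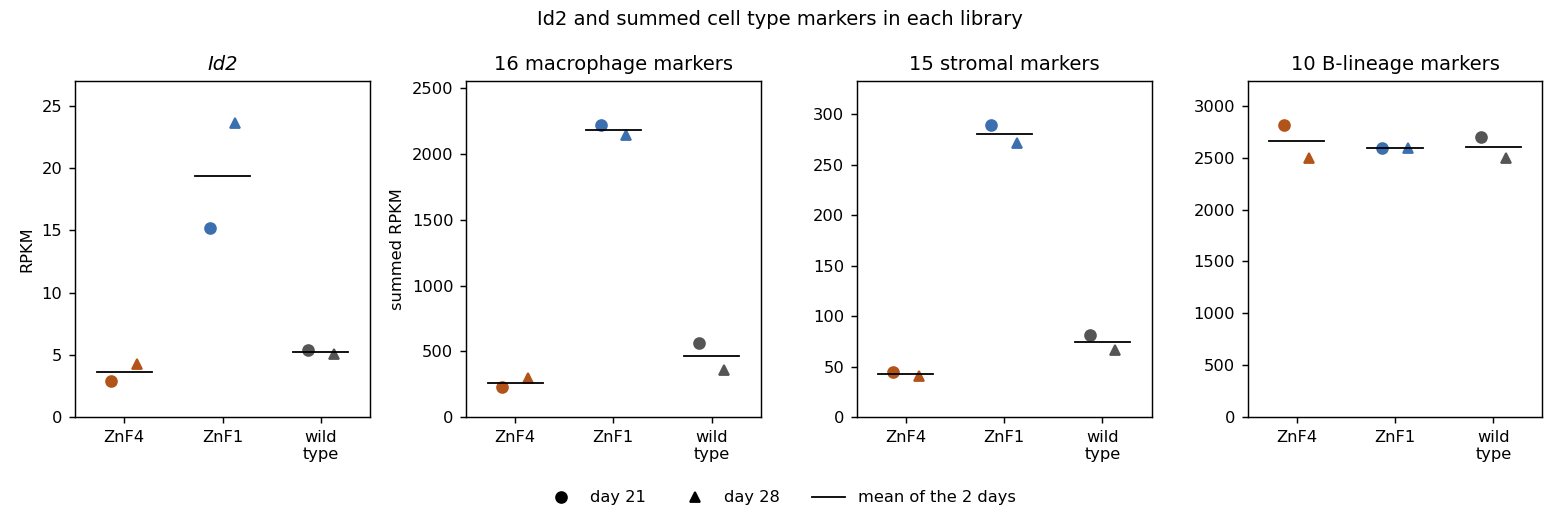
Id2 (RPKM) and the summed RPKM of macrophage, stromal and B-lineage markers in each library, by genotype; circles are day 21, triangles day 28 and lines the mean of both days. Id2 and the macrophage and stromal sums are highest in ZnF1 cells (2222.9 and 2146.9 RPKM for macrophage markers), while the B-lineage sum lies between 2494.4 and 2816.6 RPKM in all 6 libraries.

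Id3, the more abundant Id protein and a target of antigen receptor signals in lymphocytes, had 34.2 and 46.3 RPKM in ZnF4 cells, 35.4 and 48.5 RPKM in ZnF1 cells and 54.2 and 45.3 RPKM in wild type cells. The day 21 wild type library was the highest and the other genotypes overlapped wild type at day 28. No genotype difference was called: the log2 difference from wild type was -0.31 ± 0.18 in ZnF4 and -0.25 ± 0.18 in ZnF1 cells (limma, adjusted p = 0.320 and 0.326). Both differences turned positive, at 0.04 and 0.09, without the day 21 wild type library, and without that of day 28 the ZnF1 difference was -0.60 and called (limma, adjusted p = 0.0478).

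Among the E proteins, Tcf4 was called higher in ZnF4 cells, and Tcf3 and Tcf12 were called lower in ZnF1 cells. Tcf4 encodes E2-2, which is best known for driving plasmacytoid dendritic cells and is also made in B cells. It had 43.1 and 45.2 RPKM in ZnF4 cells, 30.9 and 26.4 RPKM in ZnF1 cells and 25.8 and 25.5 RPKM in wild type cells. Both ZnF4 libraries lay above the other 4.

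Against wild type, Tcf4 was 1.67 times as high in ZnF4 cells at day 21 and 1.77 times at day 28, a log2 difference of 0.76 ± 0.09 (limma, adjusted p = 0.00601). Against ZnF1 cells the log2 difference was 0.61 ± 0.09 (limma, adjusted p = 0.00460, kept under 13 of 13 alternatives). The call against wild type was lost under 4 of 13 alternatives, with the same direction. It was lost without the day 21 wild type library (log2 difference 0.73, adjusted p = 0.104) or day 28 (0.79, 0.0876), without the day 28 ZnF4 library (0.67, 0.0689), and with the longest transcript (0.38, 0.0578). That longest transcript, NM_013685, held 1.1 and 1.2 RPKM in ZnF4 cells, 0.7 and 0.7 RPKM in ZnF1 cells and 0.6 and 0.7 RPKM in wild type cells. The main transcript, NM_001083967 of 7155 bases, held 97.5% of the summed Tcf4 RPKM. In ZnF1 cells Tcf4 did not pass the test against wild type (log2 difference 0.15 ± 0.09, limma adjusted p = 0.240, 95% interval -0.08 to 0.38). Plasmacytoid dendritic cell markers (10 genes) summed to 39.9 and 53.1 RPKM in ZnF4 cells, 74.3 and 84.9 RPKM in ZnF1 cells and 34.1 and 29.1 RPKM in wild type cells. The sums of both mutants lay above wild type and those of the ZnF1 libraries were highest. Most of each sum was Bst2, an interferon-induced surface protein, at 29.9 and 41.8 RPKM in ZnF4 cells, 44.7 and 54.3 RPKM in ZnF1 cells and 21.9 and 15.7 RPKM in wild type cells. Bst2 was not called in ZnF4 against wild type cells (limma, adjusted p = 0.0504). The other tested markers, Tlr7, Irf7 and Tlr9, had log2 differences of -0.70, -0.34 and -0.08 in that comparison. Of these, Tlr7 was called lower (limma, adjusted p = 0.0120), a call lost under 5 of 12 alternatives. The part of plasmacytoid dendritic cells in the Tcf4 difference was not tested. Of these markers Siglech and Pacsin1 stayed below 1 RPKM, and Ccr9, Klk1 and Ptcra were listed at 0.

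Tcf3 encodes E2A, with the splice forms E12 and E47, the E protein that B cell development depends on most. It had 80.8 and 92.1 RPKM in ZnF4 cells, 73.8 and 97.4 RPKM in ZnF1 cells and 113 and 114.2 RPKM in wild type cells. Both wild type libraries lay above all 4 mutant libraries, and the mutants overlapped each other. The log2 difference from wild type was -0.39 ± 0.11 in ZnF4 cells (limma, adjusted p = 0.0623) and -0.42 ± 0.11 in ZnF1 cells (adjusted p = 0.0318), with a lower value on 2 of 2 days in each. The RPKM ratio to wild type was 0.715 at day 21 and 0.807 at day 28 in ZnF4 cells, and 0.653 and 0.853 in ZnF1 cells. Only the ZnF1 difference was called, which does not show that the mutants differ: ZnF4 minus ZnF1 was 0.02 ± 0.11 (limma, adjusted p = 0.865, 95% interval -0.24 to 0.29). The ZnF1 call is fragile. It was lost under 9 of 13 alternatives, including quantile scaling (log2 difference -0.29, adjusted p = 0.0594), no filter on low values (-0.42, 0.0864) and no block on day (-0.42, 0.0767). It was also lost when any 1 of the 6 libraries was left out, with adjusted p between 0.0581 (without the day 28 ZnF1 library) and 0.245 (without the day 21 wild type library). With median-ratio scaling the ZnF4 difference was called too (-0.42, adjusted p = 0.0350).

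The 5 Tcf3 transcripts of the table differ little in length and share most of their sequence, so how reads were split between them is uncertain. NM_001164147, of 3339 bases, held 85.1% of the summed RPKM and stood for the gene. The next 2 transcripts, NM_001164150 and NM_001164153, had means in ZnF4 cells of 0.783 and 0.780 times wild type and in ZnF1 cells of 0.706 and 0.702 times, near the 0.761 and 0.754 times of the main transcript.

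Tcf12 encodes HEB, the E protein with a large part in early T cells. It had 59.1 and 57.4 RPKM in ZnF4 cells, 52.2 and 47.3 RPKM in ZnF1 cells and 59.7 and 56.6 RPKM in wild type cells. Both ZnF1 libraries were lowest, and ZnF4 and wild type cells overlapped. The log2 difference was -0.22 ± 0.07 for ZnF1 against wild type (limma, adjusted p = 0.0499), and 0.22 ± 0.07 for ZnF4 against ZnF1 (adjusted p = 0.0418). Each call was lost under 10 of 13 alternatives, both scalings and the fit without the block on day (adjusted p = 0.0847 and 0.0711) among them. The first was also lost without either wild type or either ZnF1 library (adjusted p between 0.174 and 0.270), and the second when any 1 library was left out (between 0.0613 and 0.246). ZnF4 and wild type cells differed by 0.0028 ± 0.066 (95% interval -0.17 to 0.17).

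Added together, E protein transcripts outnumbered Id transcripts per length in every library. Each gene entered with its main transcript, which held 85.1% of the summed Tcf3 RPKM and 97.5% of the summed Tcf4 RPKM. Tcf12, Id2 and Id3 had 1 row each. The sums, ratios and shares thus leave out the other Tcf3 and Tcf4 rows. The sum of Tcf3, Tcf4 and Tcf12 was 183.0 and 194.7 RPKM in ZnF4 cells, 156.9 and 171.1 RPKM in ZnF1 cells and 198.5 and 196.3 RPKM in wild type cells. The sum of Id2 and Id3 was 37.1 and 50.6 RPKM in ZnF4 cells, 50.6 and 72.1 RPKM in ZnF1 cells and 59.6 and 50.4 RPKM in wild type cells. The ratio of the sums was 4.93 and 3.85 in ZnF4 cells, 3.10 and 2.37 in ZnF1 cells and 3.33 and 3.895 in wild type cells. It was lowest in the ZnF1 libraries, while ZnF4 and wild type cells overlapped. The sums and their ratio were not tested.

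The make-up of both families was described by shares of these sums. Tcf4 made up 23.6% and 23.2% of the E protein sum in ZnF4 cells, 19.7% and 15.4% in ZnF1 cells and 13% and 13% in wild type cells. Tcf3 made up 44.2% and 47.3% in ZnF4 cells, 47.0% and 56.9% in ZnF1 cells and 56.9% and 58.2% in wild type cells. Tcf12 made up 32.3% and 29.5% in ZnF4 cells, 33.3% and 27.6% in ZnF1 cells and 30.1% and 28.8% in wild type cells, with all genotypes overlapping. Id2 made up 7.82% and 8.50% of the Id sum in ZnF4 cells, 30.0% and 32.7% in ZnF1 cells and 9.06% and 10.1% in wild type cells. The Tcf4 share was highest in both ZnF4 libraries and the Id2 share in both ZnF1 libraries.

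**Figure D4:**
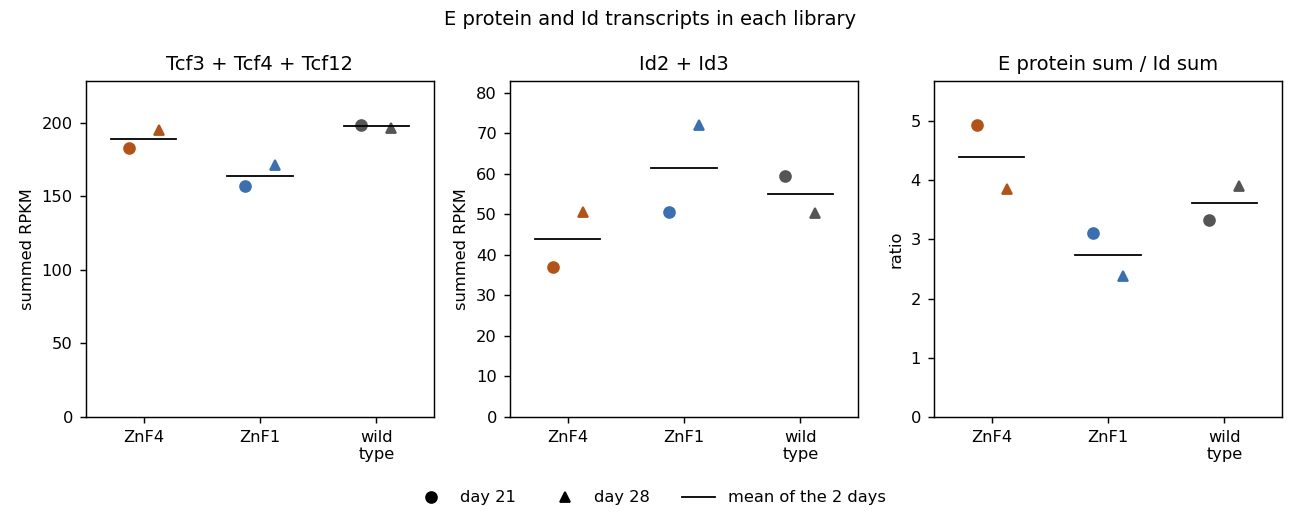
Summed RPKM of the E proteins (Tcf3, Tcf4, Tcf12), of the Id proteins (Id2, Id3), and their ratio in each library; circles are day 21, triangles day 28 and lines the mean of both days. The E protein sum (156.9 and 171.1 RPKM) and the ratio (3.10 and 2.37) are lowest in ZnF1 cells.

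Of the other helix-loop-helix genes and E protein partners, 9 of 15 listed genes were tested. In ZnF4 cells 2 were called higher and none lower than in wild type cells (list median 0.08), and in ZnF1 cells 5 higher and none lower (list median 0.57). Tal1, among those higher in ZnF1 cells, reached 1 RPKM only in the ZnF1 libraries (1.2 and 1.3 RPKM). It was thus tested only because it was high there. The share called was 22.2% in ZnF4 cells, near the 18.2% of all tested genes, and 55.6% in ZnF1 cells (38.1% of all tested genes). The ZnF1 libraries were also those with macrophage and stromal marker sums 4.71 and 3.78 times wild type, whose part in these counts was not tested. Id1, the close relative of Id2, had 0.8 and 1.0 RPKM in ZnF4 cells, 2.9 and 4.6 RPKM in ZnF1 cells and 0.9 and 0.7 RPKM in wild type cells, a ZnF1 log2 difference of 1.38 ± 0.18 (limma, adjusted p = 0.00395). Lmo2, a bridging protein in complexes with E proteins, had 4.9 and 4.5 RPKM in ZnF4 cells, 13.6 and 14.3 RPKM in ZnF1 cells and 2.7 and 2.3 RPKM in wild type cells. Its log2 difference from wild type was 0.71 ± 0.10 in ZnF4 and 2.10 ± 0.10 in ZnF1 cells (limma, adjusted p = 0.00971 and 0.00100). The ZnF4 call was lost without either wild type or either ZnF4 library (highest adjusted p 0.115). Id1 and Lmo2 were thus highest in both ZnF1 libraries, as Id2 was. Bhlhe40, a repressor of the same superfamily, had 14.3 and 17.7 RPKM in ZnF4 cells, 5.8 and 9.4 RPKM in ZnF1 cells and 4.6 and 4.7 RPKM in wild type cells, with the highest values in ZnF4 cells. The ZnF1 count was 3 with quantile scaling, 3 without the day 21 wild type library or the day 28 ZnF1 library and 2 without the day 28 wild type library. The ZnF4 count was 0 without either ZnF4 library or the day 28 wild type library and 1 without that of day 21.

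The commitment factors Ebf1 and Pax5 stayed at high levels in all genotypes, and neither was called in any comparison. Ebf1, the pioneer factor of B cell specification, had 193.8 and 207.4 RPKM in ZnF4 cells, 182.8 and 166.1 RPKM in ZnF1 cells and 215.6 and 202.0 RPKM in wild type cells. ZnF4 cells overlapped wild type, and both ZnF1 libraries were the lowest. The log2 difference from wild type was -0.06 ± 0.09 in ZnF4 cells (95% interval -0.29 to 0.17) and -0.26 ± 0.09 in ZnF1 cells (limma, adjusted p = 0.0752). The ZnF1 difference was called when either ZnF4 library was left out (adjusted p = 0.0455 and 0.0452).

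Pax5 had 170.6 and 145.0 RPKM in ZnF4 cells, 177.5 and 172.6 RPKM in ZnF1 cells and 158.2 and 133.4 RPKM in wild type cells. Both ZnF1 libraries were the highest, and ZnF4 cells overlapped wild type. The log2 difference from wild type was 0.11 ± 0.09 in ZnF4 cells (95% interval -0.10 to 0.33) and 0.27 ± 0.09 in ZnF1 cells (limma, adjusted p = 0.0607). With quantile scaling the ZnF1 difference was 0.41 and called (adjusted p = 0.0136), and with median-ratio scaling it was 0.27 and called (adjusted p = 0.0445). Between the mutants, ZnF4 minus ZnF1 was -0.15 ± 0.09 (limma, adjusted p = 0.200) and was called with quantile scaling (-0.31, adjusted p = 0.0251).

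The B-lineage genes that Ebf1, E2A or Pax5 are known to activate were called in both directions. Of 22 listed genes, all tested, 7 were called higher and 7 lower in ZnF4 than wild type cells (list median -0.10), and 4 higher and 4 lower in ZnF1 than wild type cells (list median -0.01). The share called was 63.6% in ZnF4 cells, where it was 18.2% over all tested genes, and 36.4% in ZnF1 cells, near the 38.1% over all tested genes. Pou2af1, a coactivator of B cell transcription, had 302.0 and 299.8 RPKM in ZnF4 cells, 294.1 and 333.7 RPKM in ZnF1 cells and 468.8 and 476.8 RPKM in wild type cells, and was called lower in both mutants, a call lost in ZnF1 cells without either wild type library or the day 21 ZnF1 library (limma, adjusted p up to 0.116). Bach2, a repressor in B-lineage cells, had 14.4 and 13.5 RPKM in ZnF4 cells, 25.1 and 22.1 RPKM in ZnF1 cells and 30.8 and 27.8 RPKM in wild type cells. Its ZnF4 log2 difference was -1.02 ± 0.07 (limma, adjusted p = 0.00140, called under 13 of 13 alternatives). Cd22, an inhibitory receptor of B cells, had 10.1 and 7.0 RPKM in ZnF4 cells, 4.0 and 2.6 RPKM in ZnF1 cells and 5.3 and 2.5 RPKM in wild type cells, and was higher in ZnF4 cells (log2 difference 1.0 ± 0.13, limma adjusted p = 0.00738). That call was lost with no filter, with no block on day, and without either ZnF4 library or the day 28 wild type library (highest adjusted p 0.104). The ZnF4 counts fell to 2 and 1 without the day 21 wild type library, 2 and 2 without that of day 28, and 1 and 2 without either ZnF4 library, and the higher count to 4 without either ZnF1 library. The ZnF1 counts fell to 0 and 0, 1 and 0, 1 and 0, and 0 and 2 without the day 21 wild type library, that of day 28, the day 21 ZnF1 library and that of day 28. With quantile scaling they were 1 and 5.

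Genes that Pax5 is known to repress were mostly lower in ZnF4 cells and mostly higher in ZnF1 cells where called. Of 15 listed genes 11 were tested. In ZnF4 cells 1 was called higher and 7 lower than wild type (list median -0.53), and in ZnF1 cells 7 higher and 3 lower (list median 0.98), a share called of 72.7% and 90.9%, with 18.2% and 38.1% over all tested genes. Between the mutants 1 was called higher and 10 lower in ZnF4 than ZnF1 cells (list median -1.06). Over all tested genes 45.5% were called in that comparison, 22.3% higher and 23.2% lower. Csf1r, the macrophage growth factor receptor, which is also on the macrophage list, had 8.1 and 9.6 RPKM in ZnF4 cells, 85.5 and 77.0 RPKM in ZnF1 cells and 21.2 and 13 RPKM in wild type cells. Cd33, a myeloid surface protein, had 0.4 and 0.9 RPKM in ZnF4 cells, 31.4 and 24.3 RPKM in ZnF1 cells and 1.2 and 1.0 RPKM in wild type cells. Both were high in the libraries with high macrophage markers, and their part in the list's counts was not tested. Grap2, an adaptor of T cell signalling, went the other way, with 8.0 and 12.9 RPKM in ZnF4 cells, 2.1 and 4.9 RPKM in ZnF1 cells and 11.1 and 20.6 RPKM in wild type cells (ZnF1 log2 difference -1.92 ± 0.10, limma adjusted p = 0.00100). Notch1, the receptor of T lineage choice, had 13.6 and 13.8 RPKM in ZnF4 cells, 18.9 and 17.5 RPKM in ZnF1 cells and 22.4 and 22.7 RPKM in wild type cells, and was called lower in ZnF4 cells (log2 difference -0.68 ± 0.07, limma adjusted p = 0.00488), a call lost without either wild type or either ZnF4 library (highest adjusted p 0.0866). Flt3, Gzma and Gata1 stayed below 1 RPKM in all libraries. Cd28, among those called higher in ZnF1 cells, reached 1 RPKM only in the ZnF1 libraries (1.3 and 1.5 RPKM). It was thus tested only because it was high there. The ZnF4 count of 7 fell to 1, 1, 2 and 1 without the wild type libraries of day 21 and 28 and the ZnF4 libraries of day 21 and 28, and to 3 without either ZnF1 library. The ZnF1 counts were 5 to 7 higher and 1 to 3 lower with 1 library left out, with 1 lower without either wild type or either ZnF1 library.

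Foxo1, the forkhead factor that switches on Ebf1, Rag and Il7r genes in early B cells, had 64.9 and 69.4 RPKM in ZnF4 cells, 62.7 and 57.6 RPKM in ZnF1 cells and 64.1 and 58.8 RPKM in wild type cells. These were the least variable values of the 10 genes, and ZnF1 and wild type cells overlapped. Both ZnF4 libraries lay above all others, at day 21 by little (64.9 RPKM against 64.1 RPKM in wild type cells). The log2 difference from wild type was 0.13 ± 0.08 in ZnF4 cells (95% interval -0.09 to 0.34) and -0.03 ± 0.08 in ZnF1 cells (95% interval -0.24 to 0.18), and neither was called.

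Most genes on a list of those Foxo1 activates in lymphocytes were higher in ZnF1 cells. Of 15 listed genes, all tested, 4 were called higher and 4 lower in ZnF4 than wild type cells (list median -0.12), and 11 higher and none lower in ZnF1 than wild type cells (list median 0.85), a share called of 53.3% and 73.3%, with 18.2% and 38.1% over all tested genes. Il7r, the interleukin 7 receptor, had 38.3 and 39.7 RPKM in ZnF4 cells, 82.3 and 95.8 RPKM in ZnF1 cells and 41.4 and 45.5 RPKM in wild type cells (ZnF1 log2 difference 1.02 ± 0.07, limma adjusted p = 0.00109). S1pr1, a receptor for exit from lymphoid tissue, had 17.7 and 11 RPKM in ZnF4 cells, 33.1 and 25.5 RPKM in ZnF1 cells and 5.1 and 4.1 RPKM in wild type cells. Both mutants lay above wild type for S1pr1, and the ZnF1 libraries were highest. Rag2, of the V(D)J recombinase, had 20.6 and 15 RPKM in ZnF4 cells, 19.0 and 13.1 RPKM in ZnF1 cells and 9.2 and 7.5 RPKM in wild type cells, and was called higher in both mutants. The Rag2 call in ZnF4 cells was lost without either ZnF4 library or the day 21 wild type library. Its ZnF1 call was not followed under the alternatives. Several of these genes are also made by other blood cells, and the macrophage marker sums given above were highest in the same ZnF1 libraries; their part was not tested. The ZnF1 count was 7 without the day 21 wild type library and 8 to 11 without any other. The ZnF4 counts were 1 and 0 without the day 21 wild type library or the day 21 ZnF4 library, and 2 and 0 without the day 28 wild type library or the day 28 ZnF4 library. With the longest transcript the lower count was 2.

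**Figure D5:**
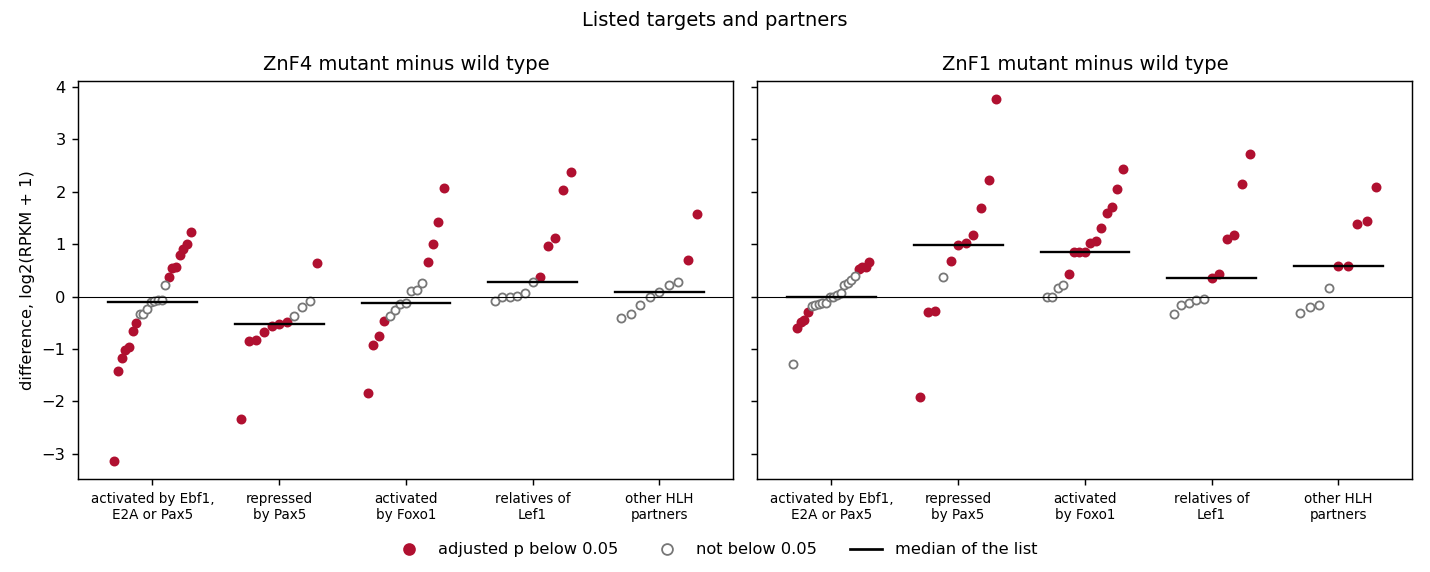
Differences from wild type on the log2(RPKM + 1) scale of the tested genes in 5 lists, ZnF4 cells left and ZnF1 cells right; each point is a gene, red points have an adjusted p below 0.05 (limma), and black lines are list medians. The medians of the lists repressed by Pax5 and activated by Foxo1 are -0.53 and -0.12 in ZnF4 cells and 0.98 and 0.85 in ZnF1 cells.

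Lef1, a partner of beta-catenin that helps pro-B cells survive, had 138.2 and 142.7 RPKM in ZnF4 cells, 141.0 and 116.2 RPKM in ZnF1 cells and 191.4 and 141.9 RPKM in wild type cells. The day 21 wild type library was highest, and ZnF4 cells overlapped wild type at day 28. The log2 difference from wild type was -0.23 ± 0.13 in ZnF4 and -0.36 ± 0.13 in ZnF1 cells (limma, adjusted p = 0.283 and 0.0750). The ZnF1 difference was called when either ZnF4 library was left out (adjusted p = 0.0353 and 0.0351).

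Relatives and cofactors of Lef1 were higher in both mutants where they were called. Of 13 listed genes 11 were tested, with 5 called higher and none lower in ZnF4 than wild type cells (list median 0.27), and 6 higher and none lower in ZnF1 than wild type cells (list median 0.35), a share called of 45.5% and 54.5%, with 18.2% and 38.1% over all tested genes. Tcf7l1, a repressor of the Lef1 family, had 15.3 and 11.7 RPKM in ZnF4 cells, 17.5 and 12.2 RPKM in ZnF1 cells and 3.1 and 2.0 RPKM in wild type cells. Its log2 difference was 2.04 ± 0.08 in ZnF4 and 2.16 ± 0.08 in ZnF1 cells (limma, adjusted p = 0.000537 and 0.00100), called under 13 of 13 alternatives in each. Tcf7, the family member known from T cells, had 5.2 and 6.2 RPKM in ZnF4 cells, 7.0 and 5.2 RPKM in ZnF1 cells and 2.2 and 2.0 RPKM in wild type cells. Aes, a short corepressor of the Groucho family, had 72.7 and 66.4 RPKM in ZnF4 cells, 88.3 and 89.6 RPKM in ZnF1 cells and 22.1 and 7.0 RPKM in wild type cells. For all 3 genes every mutant library lay above both wild type libraries. Tle2, among those called higher in ZnF1 cells, reached 1 RPKM only in the ZnF1 libraries (1.3 and 1.4 RPKM). It was thus tested only because it was high there. The Tcf7 calls were lost without either wild type library, and in ZnF4 cells also without the day 28 ZnF4 library or with no filter (limma, adjusted p up to 0.122). The Aes calls were lost without either ZnF4 library or with no filter in ZnF4 cells, and without the day 28 ZnF1 library in ZnF1 cells (limma, adjusted p up to 0.150). T cell markers (10 genes) summed to 28.8 and 21.2 RPKM in ZnF4 cells, 21.1 and 44.3 RPKM in ZnF1 cells and 48.7 and 55.0 RPKM in wild type cells. Most of each sum was the kinase Lck, at 16.9 and 15.8 RPKM in ZnF4 cells, 11.7 and 30.5 RPKM in ZnF1 cells and 36.3 and 46.7 RPKM in wild type cells. Of the list 6 stayed below 1 RPKM in all libraries, and Cd3e, Cd3g, Cd8a and Themis among them were listed at 0, while Cd4 had 0.0 and 0.1 RPKM in ZnF4 cells, 8.5 and 7.2 RPKM in ZnF1 cells and 0.4 and 0.2 RPKM in wild type cells. Their part in the list's counts was not tested. The ZnF4 count was 2 without either wild type library, 3 without the day 21 ZnF4 library and 1 without that of day 28. The ZnF1 count was 3 without either wild type library or the day 28 ZnF1 library. With quantile scaling the ZnF1 counts were 4 higher and 1 lower.

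Runx1, the Runt factor needed for early blood cells and for the onset of Ebf1, was near level, with 34.1 and 41.9 RPKM in ZnF4 cells, 37.1 and 40.3 RPKM in ZnF1 cells and 35.1 and 39.2 RPKM in wild type cells. All 3 genotypes overlapped. The log2 difference from wild type was 0.03 ± 0.07 in ZnF4 cells (95% interval -0.16 to 0.22) and 0.06 ± 0.07 in ZnF1 cells (95% interval -0.13 to 0.25). A second transcript, NM_001111023, lay between 3.2 and 4.7 RPKM in the 6 libraries. Of its relatives and cofactors 5 of 7 were tested, with 2 called higher in ZnF4 cells and 1 in ZnF1 cells, where 10.9% and 22.9% of all tested genes were called higher. Hipk2, a kinase that acts on Runx1, was called in both and had 27.9 and 35.4 RPKM in ZnF4 cells, 33.5 and 28.0 RPKM in ZnF1 cells and 16.1 and 13.8 RPKM in wild type cells. Neither count was kept when a wild type library was left out, and both Hipk2 calls were lost then. The Hipk2 call in ZnF4 cells was also lost with no filter and with the longest transcript. In ZnF1 cells it was also lost without the day 21 ZnF1 library.

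Of other factors upstream in B-lineage specification 15 of 16 were tested, with 4 called higher and 3 lower in ZnF4 than wild type cells (list median 0.07), and 2 higher and 1 lower in ZnF1 than wild type cells (list median 0.10). The share called was 46.7% in ZnF4 cells (18.2% of all tested genes) and 20.0% in ZnF1 cells, below the 38.1% of all tested genes. With 1 library left out the ZnF4 counts were 1 to 3 and 0 to 1 and the ZnF1 counts 0 to 2 and 0 to 1, lowest without either wild type library. The table has PU.1, a myeloid and early B factor listed as Spi1, under its older symbol Sfpi1, outside the list count. It differed from wild type by -0.11 ± 0.08 in ZnF4 and 0.83 ± 0.08 in ZnF1 cells (limma, adjusted p = 0.428 and 0.00180). Macrophage markers summed to 4.71 times wild type in ZnF1 cells, and their part in the PU.1 difference was not tested. The PU.1 call was not followed under the alternatives. Among relatives of Ebf1, Pax5 and Foxo1, 2 of 10 were tested, Foxo3 and Foxo4, and neither was called against wild type. No other listed Ebf or Pax gene reached the level needed for a test.

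The genes with profiles nearest to a called member over the 6 libraries were found by the root mean square difference of centred log2(RPKM + 1). For Id2 they were Rasgef1b (0.0976), Pdpn (0.105) and Ccl3 (0.120), of which Ccl3, a chemokine, is on the list of genes repressed by Pax5. Each was highest in the ZnF1 libraries, where the macrophage and stromal marker sums were highest too. The part of those cells in these profiles was not tested. For Tcf4 they were Etv6 (0.0571), Mink1 (0.0711) and Mef2c (0.0773). Mef2c, a factor of early B cells, had 48.4 and 52.7 RPKM in ZnF4 cells, 32.6 and 29.4 RPKM in ZnF1 cells and 31.1 and 31.9 RPKM in wild type cells. For Tcf3 they were Rragb, Tomm5 and Hemgn (0.0441 to 0.0528), all at 5.5 RPKM or less in every library. For Tcf12 they were Tcf20, Elf2 and Med11 (0.0139 to 0.0257).

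None of the 10 genes was called by day of culture, which does not show that day changed nothing. At day 28 against day 21, 0% of the 11379 genes were called (limma, smallest adjusted p = 0.154), while 1631 genes (14.3%) had an unadjusted p below 0.05. Of the 10 genes 1 was among these, Runx1, which was higher on day 28 in 3 of 3 genotypes (log2 difference 0.19 ± 0.06, limma adjusted p = 0.288). Tcf3 was also higher on day 28 in 3 of 3 genotypes (0.20 ± 0.09, adjusted p = 0.374), and Pax5 lower in 3 of 3 (-0.17 ± 0.07, adjusted p = 0.355). The Id2 log2 difference, day 28 minus day 21, was 0.44 in ZnF4 cells, 0.60 in ZnF1 cells and -0.07 in wild type cells, and 0.33 ± 0.14 over the genotypes (limma, adjusted p = 0.374).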

How the data were processed

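Poly(A) RNA of BCR-ABL-transformed cells was sequenced in 6 libraries, 1 per genotype and day. Per the labels' protocols, the libraries were fragmented double-stranded cDNA for Illumina sequencing, with no strand-marking step named, so reads of a gene and of an overlapping antisense gene cannot be told apart. The tools were TopHat and bedtools and the mouse build was mm9, per the submitters' processing notes, which name no versions. The authors deposited 1 table of RPKM values, rounded to 1 decimal, with 26531 RefSeq transcript rows. The depth is unknown: between 36.3% and 58.9% of low values fell on steps of single reads, where chance gives 36.6% to 51.9%. The ZnF4 libraries lay furthest above their own chance values (58.9% against 51.9% and 56.4% against 51.6%), and no library had nearly all values on steps, so reads were not recovered and no counting interval is given.

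A stray entry (1) without a gene name was left out. Of 22098 symbols 3305 had several rows, of which the one with the highest mean was used. The 10 genes have 16 rows. Genes at 1 RPKM or more in at least 2 libraries (11379) were tested on log2(RPKM + 1), with a pseudocount of 1, by limma 3.58.1 in R 4.3.3. The fit had genotype and day as additive terms, a mean-variance trend and Benjamini-Hochberg adjustment within a comparison, with 2 residual and 3.22 prior degrees of freedom. Python 3.11.15, pandas 2.3.3 and matplotlib 3.10.9 made summaries and figures. The steps were tested on simulated data.

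A library's replicate number in the labels is its day, so day was the block. The changes between days correlated across genes at 0.433 (ZnF1 and wild type), 0.249 (ZnF4 and wild type) and 0.226 (ZnF4 and ZnF1), and genes are not independent replicates. No pair of libraries was a duplicate: at most 5.61% of tested genes had identical values.

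The 10 genes and the 14 gene lists (176 genes, 175 matched by symbol) were chosen with earlier results of these data known. The text names all 10 genes, up to 4 genes of a list with the smallest p per comparison, and the 3 nearest profiles of each called gene. Others (Notch1 in some comparisons, Sfpi1, markers listed at or near 0) were chosen after their values were seen. Some genes of the lists are not reported here by name. Alternatives were quantile and median-ratio scaling, a pseudocount of 0.1, no filter, a mean of at least 4 RPKM, the longest transcript, no block, and leaving out each library. Their use on the lists was added after seeing the data.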

Additional observations from a re-analysis of the deposited data

Results flagged for a closer look

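Id3 moved in opposite directions with day in mutant and wild type cells. The difference of day 28 minus day 21 on the log2(RPKM + 1) scale was 0.4263 in ZnF4 cells, 0.4435 in ZnF1 cells and -0.2537 in wild type cells. Id3 was singled out because at least 1 genotype rose and at least 1 fell, each by at least 0.1. The rule did not ask which genotypes these were. The difference between genotypes was not tested, since there was 1 library per genotype and day.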

How the results depend on the processing

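Both Id2 calls and the Tcf4 call between the mutants held under all 13 alternatives, and no gene was called by day under any. Of the 10 genes, those called in ZnF4 against wild type (1) became 2 with median-ratio scaling and 0 with the longest transcript, and lay at 0 to 1 with 1 library left out. Those called in ZnF1 against wild type (3) became 1 with no replicate block and lay at 1 to 4 with 1 library left out. Of all genes, 2076 called in ZnF4 against wild type became 1137 with no filter and 346 to 1230 with 1 library left out, 4336 in ZnF1 against wild type became 1398 to 4475, and 5177 in ZnF4 against ZnF1 became 2526 to 3896. Quantile scaling moved the median of all genes to -0.12 in ZnF1 against wild type (main value -0.02) and to 0.12 in ZnF4 against ZnF1 (main value 0.03). It gave 2047 higher and 2913 lower genes in ZnF1 against wild type, where the main counts were 2606 and 1730, and 3431 and 2359 in ZnF4 against ZnF1, where they were 2540 and 2637. Directions turned only among differences that were not called; the cause was not tested. With quantile scaling these were Foxo1 in ZnF1 against wild type (0.080), and Tcf3 (-0.094) and Lef1 (-0.014) in ZnF4 against ZnF1; with median-ratio scaling Tcf12 in ZnF4 against wild type (-0.022) and Tcf3 in ZnF4 against ZnF1 (-0.00137); and with the longest transcript Tcf4 by day (0.052). With 1 library left out, the differences in ZnF4 against wild type ran between -0.16 and 0.049 for Ebf1, -0.030 and 0.036 for Tcf12, -0.65 and 0.035 for Id3 and -0.050 and 0.10 for Runx1. In ZnF1 against wild type they ran between -0.085 and 0.025 for Foxo1 and -0.60 and 0.092 for Id3, and in ZnF4 against ZnF1 between -0.12 and 0.17 for Tcf3, -0.24 and 0.12 for Id3, -0.067 and 0.33 for Lef1 and -0.11 and 0.045 for Runx1. By day they ran between -0.12 and 0.0019 for Ebf1 and -0.12 and 0.025 for Tcf4. With no filter the ZnF4 counts against wild type of the list activated by Ebf1, E2A or Pax5 were 2 higher and 2 lower (4 and 7 with no block), and 3 genes repressed by Pax5 were lower (4 with no block). The precision rests on 2 libraries a genotype, and the depth is unknown.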
